A study of Mus musculus with 60 samples.

Results

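The NRF2 pathway and the synthesis of glutathione were followed through 10 transcripts, the transcription factor Nfe2l2 (NRF2), its inhibitor Keap1, the glutathione synthesis genes Gclc, Gclm and Gss, the reductases Gsr and Txnrd1, the NADPH-producing enzyme G6pdx, and the antioxidant enzymes Nqo1 and Srxn1. The members are a list of gene symbols, matched to the Ensembl gene rows of the files, and the rule uses no expression value. They are 10 of the 55335 genes in the files, and all 10 were among the 15546 genes that reached at least 1 CPM (a count scaled to library size) in 1 or more samples.

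NRF2 is a transcription factor of the basic leucine zipper type that is held in the cytoplasm by KEAP1 and passed by it to a ubiquitin ligase, so that it is degraded. When electrophiles or oxidants modify KEAP1, NRF2 escapes, pairs with small MAF proteins in the nucleus, and binds antioxidant response elements in front of genes that make glutathione, NADPH and detoxifying enzymes. Glutathione is the main small thiol of the cell and is plentiful in the kidney, where the brush border of the proximal tubule also breaks it down. BMAL1, the protein lost in the knockout, is a core clock factor that binds E-boxes together with CLOCK.

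RNA was sequenced from the kidneys of 60 male mice on a C57BL/6J background, 5 mice of each genotype at each of 6 zeitgeber times (ZT, hours after lights on), each sample being a separate mouse. The knockout mice carried Bmal1lox/lox together with Pax8-rtTA and LC1 (Cre) and are called cKOt mice, and their Bmal1lox/lox littermates are the control mice. Both genotypes drank doxycycline at 2 mg per mL with sucrose for 2 weeks from 8 weeks of age, so that the drug is shared by both groups, and kidneys were taken 4 weeks after it ended, at ZT0, ZT4, ZT8, ZT12, ZT16 or ZT20 of a day with 12 h of light and 12 h of darkness. Pax8 drives the deletion in the renal tubule, so that vessels, stroma, glomeruli and immune cells keep Bmal1, and although the labels give the tissue as renal tubule, RNA was made from frozen kidney pieces according to the study's methods.

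The 60 libraries held between 17791420 and 20906706 counts on genes (median 18545208.5). After sequencing, the authors kept 5 of 6 mice per group, by RNA quality and by distance from other mice, and replicate 4 of the cKOt mice at ZT16, which their records mark for removal but which is among the samples, was kept with its label. The targeted gene is listed as Arntl and ranged in group mean from 2.73 CPM at ZT8 to 48.4 CPM at ZT0 in control mice, and from 17.4 to 24.4 CPM in cKOt mice, whose counts include exons outside the floxed part and so do not check the deletion itself. The 6 markers of the proximal tubule, 3 higher and 3 lower in cKOt mice, summed to 12250 to 16440 CPM in control (median 13860) and 11440 to 16500 CPM in cKOt mice (median 12550). The 2 markers of the thick ascending limb, 1 higher and 1 lower, summed to 2614 to 5398 CPM in control (median 4426) and 3211 to 4492 CPM in cKOt mice (median 3638). The part of either in the results was not tested. Of the other markers, those of the collecting duct had 1 of 3 higher and 1 lower in cKOt mice, by the test of the mean below. The distal convoluted tubule had 1 of 2 higher, tubular injury 1 of 3 higher and T cells 1 of 2 lower. Neither podocyte marker passed, and neither haemoglobin marker did. For macrophages 4 of 4, for endothelium 3 of 3 and for fibroblasts 3 of 3 were lower, against 23.2% of all genes tested (26.8% were higher). Their summed levels were 91.8 to 183, 240.1 to 297 and 41.0 to 125 CPM in control and 59.3 to 124.5, 192 to 280.5 and 45.6 to 109.6 CPM in cKOt mice, and their part in the differences below was not tested. The 2 B cell markers did not reach 1 CPM in any library, and both haemoglobin markers summed to at most 3.27 CPM. In whole tissue, fewer cells of a type and less RNA per cell cannot be told apart.

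RefSeq promoter windows of 300 bases (250 before and 50 after the annotated start, GRCm38.p6) were on hand for 8 of the 10 genes, and not for Gclc and Gsr. They were searched on both strands for the E-box CACGTG, the related CACGTT, the antioxidant response element core TGACNNNGC and its variant TGAGNNNGC, of which 7.15%, 4.68%, 12.4% and 17.6% of all 32851 mouse windows hold at least 1. None of the 8 genes held CACGTG in its window, 5 held TGACNNNGC (Nfe2l2, Gclm, Srxn1, G6pdx and 1 of the 3 windows of Txnrd1), 1 held TGAGNNNGC (Srxn1) and 2 held CACGTT (Keap1 and G6pdx). The windows of Gss and Nqo1 held none of these letters. The windows of the 3 genes with the smallest adjusted p-values of those with such a match are shown 5′ to 3′ in the direction of the gene, with each match in capitals.
Srxn1, chr2:152105274-152105573, plus strand: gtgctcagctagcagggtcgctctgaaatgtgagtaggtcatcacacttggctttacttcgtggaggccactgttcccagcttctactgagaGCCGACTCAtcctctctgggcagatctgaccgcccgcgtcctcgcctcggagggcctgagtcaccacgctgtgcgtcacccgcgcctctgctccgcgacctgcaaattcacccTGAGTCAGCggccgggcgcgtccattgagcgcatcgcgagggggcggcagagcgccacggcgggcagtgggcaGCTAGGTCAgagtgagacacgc
Gclm, chr3:122245307-122245606, plus strand: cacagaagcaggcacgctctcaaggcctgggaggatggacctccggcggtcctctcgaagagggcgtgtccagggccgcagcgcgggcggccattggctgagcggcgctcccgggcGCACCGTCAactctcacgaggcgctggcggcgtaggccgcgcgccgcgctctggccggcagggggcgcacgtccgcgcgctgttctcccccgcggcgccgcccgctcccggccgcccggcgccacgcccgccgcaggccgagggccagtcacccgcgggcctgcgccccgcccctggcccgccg
Nfe2l2, chr2:75704614-75704913, minus strand: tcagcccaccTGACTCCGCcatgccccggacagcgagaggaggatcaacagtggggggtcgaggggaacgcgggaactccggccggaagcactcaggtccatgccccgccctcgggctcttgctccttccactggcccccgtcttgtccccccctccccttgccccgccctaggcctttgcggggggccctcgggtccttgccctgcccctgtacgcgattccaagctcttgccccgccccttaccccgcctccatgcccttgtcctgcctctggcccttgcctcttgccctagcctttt
Counted from the annotated start, the 3 matches of the Srxn1 window begin at -158 and -45 (both TGAGNNNGC) and at 28 (TGACNNNGC). The match of Gclm begins at -134 and that of Nfe2l2 at -240. A match gives only the letters, and binding of NRF2 was not measured.

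Averaged over the 6 time points, 9 of the 10 transcripts differed between the genotypes, 3 higher and 6 lower in cKOt mice, by the quasi-likelihood F test of edgeR, adjusted over all genes by the Benjamini-Hochberg method. Across all genes tested 50.0% passed the same test, 26.8% higher and 23.2% lower, so that a difference as such is common in these kidneys. The median log2 fold change of the 10 was -0.071, against 0.012 for all genes tested. Nfe2l2, Gclc and Gsr were higher, Srxn1, Gclm, Gss, Txnrd1, Keap1 and G6pdx lower, and Nqo1 did not pass. The sizes were small. Srxn1 alone passed with a fold change above 1.2, as did 16.1% of all genes tested. Over 15 alternatives 7 to 9 of the 10 passed. When the batch number in the study's sample records, whose kind those records do not state, replaced the 2 factors of unwanted variation as covariate, 8 of the 10 passed, and Keap1 (adjusted p = 0.0891) did not.

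**Figure D1:**
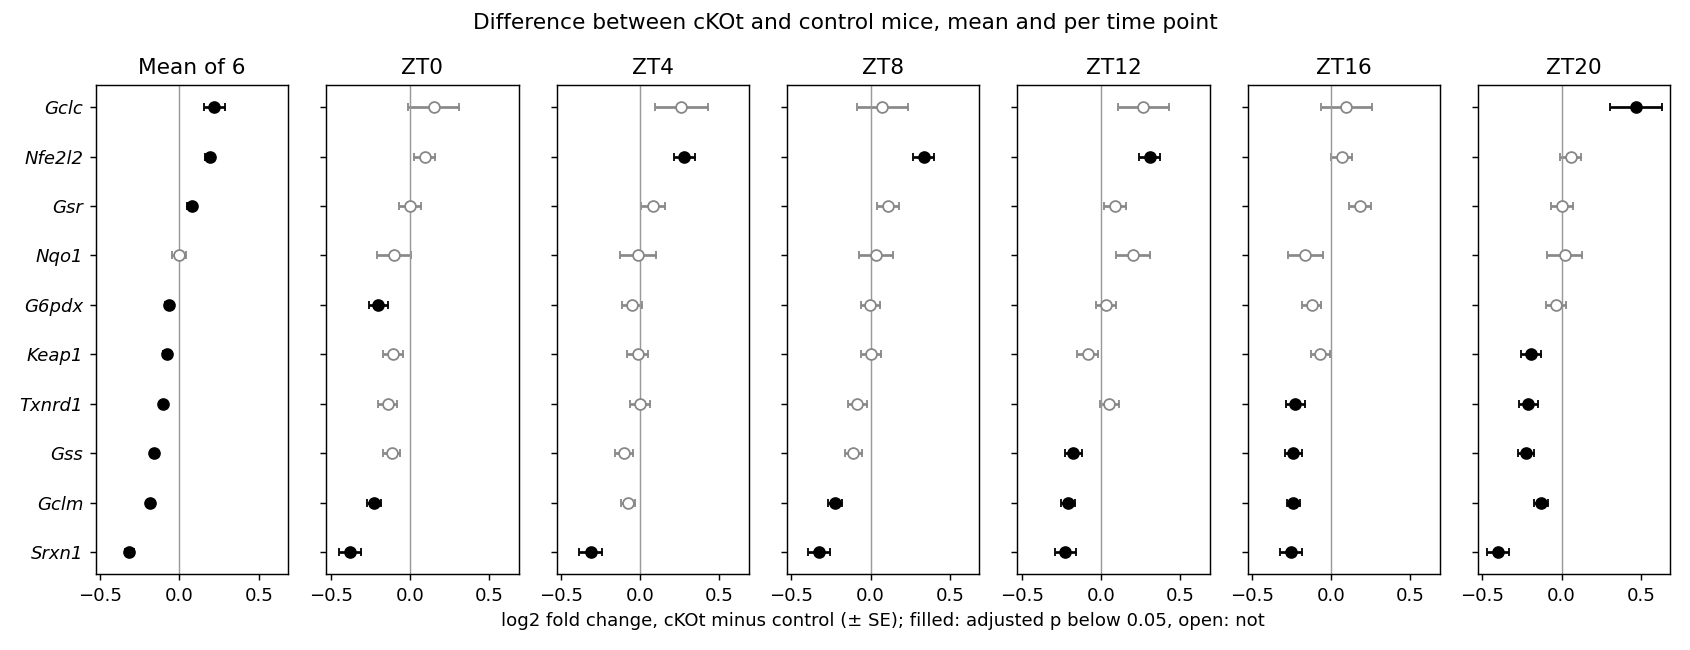
Fitted log2 fold change (cKOt minus control, horizontal axis, ± SE) of the 10 transcripts, as the mean of the 6 time points and at each time point; filled points passed an adjusted p of 0.05 in the edgeR test and open points did not. Srxn1 lies left of 0 in all 7 panels and is filled in each, whereas Nfe2l2 is filled at ZT4, ZT8 and ZT12 and lies near 0 at ZT16 and ZT20.

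Nfe2l2 (ENSMUSG00000015839) lies on the minus strand of chromosome 2 from 75675513 to 75704641 (GENCODE M21 on GRCm38, as for the other genes). NRF2 is regulated mostly as a protein, and its mRNA was higher in cKOt mice at ZT4, ZT8 and ZT12. At ZT4 the 5 control mice had 84.6, 86.0, 90.1, 90.3 and 96.8 CPM and the 5 cKOt mice 103, 109, 112, 117 and 121 CPM. At ZT8 the values were 82.9, 85.8, 90.9, 97.95 and 101 CPM in control and 105, 105, 112, 120.1 and 127 CPM in cKOt mice. At both times every cKOt mouse lay above every control mouse, as 11.1% and 9.49% of all genes did, higher or lower, at ZT4 and ZT8. The same held at ZT12 (9.73% of all genes), with 83.7, 88.2, 97.8, 104 and 105 CPM in control and 109.8, 113, 121, 128.5 and 131 CPM in cKOt mice. Fitted log2 fold changes were 0.28 ± 0.069 at ZT4 (adjusted p = 0.00307), 0.34 ± 0.066 at ZT8 (adjusted p = 8.72e-05) and 0.31 ± 0.066 at ZT12 (adjusted p = 0.000262). At the other times the ranges overlapped and the transcript did not pass. Control mice had 102 ± 7.44 CPM at ZT16, 103 ± 15.7 CPM at ZT20 and 106 ± 3.43 CPM at ZT0 (SD, n = 5 per group). The cKOt mice had 105.5 ± 8.10, 109 ± 7.15 and 113 ± 9.61 CPM at these times. Control levels were thus lower from ZT4 to ZT12 than from ZT16 to ZT0, and cKOt levels lay between 105.5 and 121 CPM in group mean. Over all times the level was 98.1 ± 10.3 CPM in controls and 112 ± 9.11 CPM in cKOt animals (SD, n = 30 per genotype, log2 fold change 0.19 ± 0.027, adjusted p = 2.58e-08). The test of whether the difference itself varied between time points gave an adjusted p of 0.0915, which did not pass. It was 0.0359 with the batch as covariate and 0.0404 with the replicate number as a block.

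Keap1 (ENSMUSG00000003308) lies on the minus strand of chromosome 9 from 21229730 to 21239361. Its product is the adaptor that presents NRF2 to the CUL3 ubiquitin ligase. The level was 27.9 ± 4.56 CPM in controls and 26.0 ± 3.94 CPM in cKOt animals (SD, n = 30 per genotype), and 1 control mouse at ZT16 stood at 45.3 CPM, above the 25.4 to 29.2 CPM of its group. Group means ran from 25.4 (ZT8) to 30.9 CPM (ZT16) in control and from 23.0 (ZT12) to 30.1 CPM (ZT16) in cKOt mice, and the ranges of the genotypes overlapped at each of the 6 times. The mean was lower in cKOt mice (log2 fold change -0.078 ± 0.025, adjusted p = 0.00928), and of the single time points ZT20 passed (log2 fold change -0.19 ± 0.063, adjusted p = 0.0296). The mean was no longer called without the factors of unwanted variation (adjusted p = 0.113) or without replicate 1 (0.128) or 5 (0.0761). The call at ZT20 was lost in 6 of 15 alternatives, which were no factors (0.362), the batch as covariate (0.505), no filter on low counts (0.0807) and leaving out replicate 2 (0.0541), 4 (0.0872) or 5 (0.192).

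**Figure D2:**
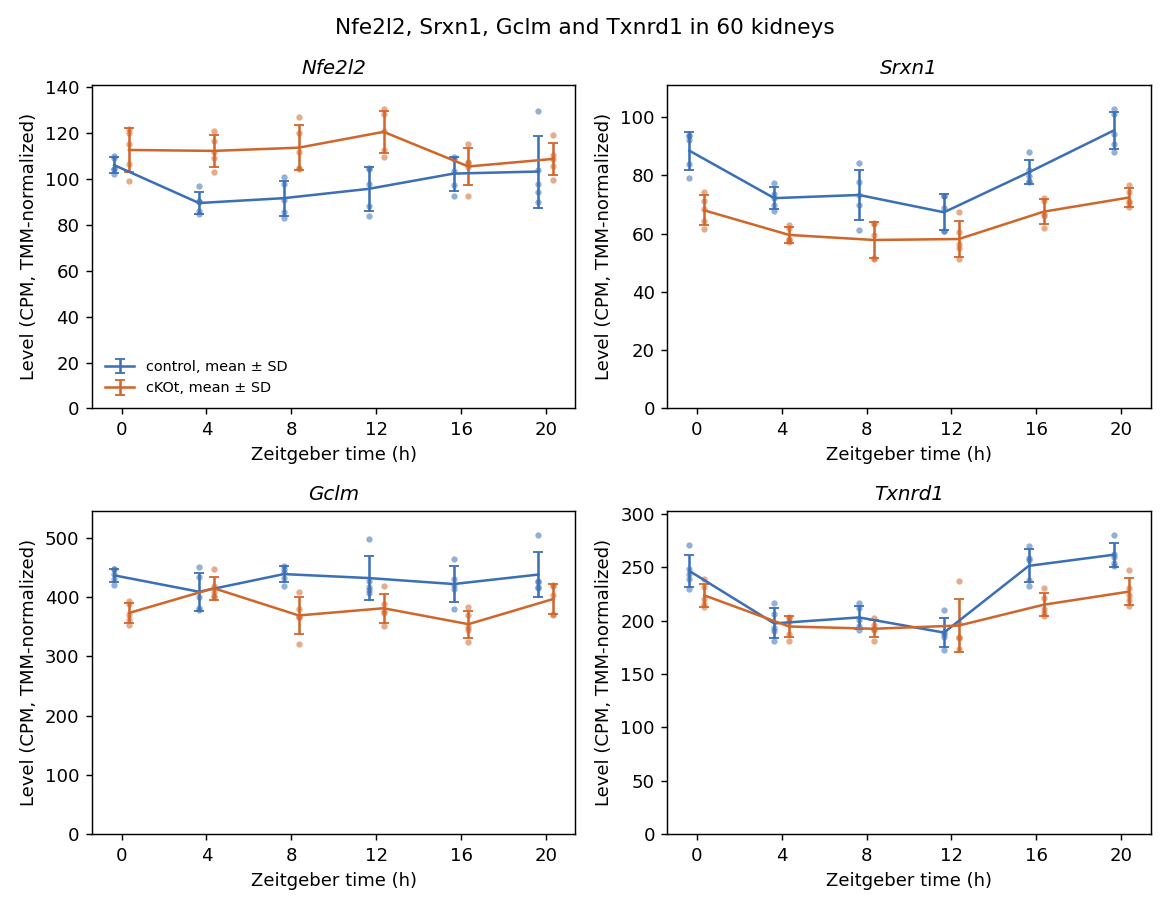
Levels of Nfe2l2, Srxn1, Gclm and Txnrd1 (vertical axis, TMM-normalized CPM, starting at 0) against zeitgeber time for 30 control (blue) and 30 cKOt mice (orange); each dot is a mouse and lines join group means ± SD (n = 5). The cKOt line lies above the control line for Nfe2l2 and below it for Srxn1 at all 6 times, and the dots for Txnrd1 do not overlap between genotypes at ZT16 and ZT20, with control means of 251 and 262 CPM.

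Glutathione is made in 2 steps. Glutamate-cysteine ligase, the rate-limiting enzyme, consists of the catalytic subunit GCLC and the modifier subunit GCLM, and glutathione synthetase (GSS) adds glycine. The transcripts of the subunits differed in opposite directions, Gclc higher and Gclm lower in cKOt mice, and Gss was lower as well.

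Gclc (ENSMUSG00000032350) lies on the plus strand of chromosome 9 from 77754535 to 77794485. Per kilobase of exon it was the highest of the 10 transcripts in both genotypes, with 136 ± 21.1 reads per kilobase of exon (RPKM, CPM divided by exonic length) in control and 159 ± 35.55 RPKM in cKOt mice (SD, n = 30 per genotype). The group means of control mice, in CPM ± SD (n = 5 per group), were 493.5 ± 53.6 at ZT0, 486 ± 102 at ZT4, 534 ± 67.0 at ZT8, 524 ± 63.3 at ZT12, 559 ± 123 at ZT16, and 478 ± 50.55 at ZT20. Those of cKOt mice were 544 ± 68.3 at ZT0, 587 ± 73.9 at ZT4, 555 ± 150.4 at ZT8, 643 ± 66.7 at ZT12, 589.9 ± 163 at ZT16, and 680.0 ± 222 at ZT20. All 6 cKOt means were above the control means, but the ranges overlapped at each time. The mean difference passed (log2 fold change 0.22 ± 0.066, adjusted p = 0.00444). Among single times, ZT20 passed (log2 fold change 0.47 ± 0.16, adjusted p = 0.0446), with 410.1, 456, 481, 495 and 547 CPM in control and 492, 517, 660.3, 683 and 1047 CPM in cKOt mice. Replicate 1 of these cKOt mice stood far above the others. Without that mouse the log2 fold change at ZT20 was 0.28 with an adjusted p of 0.28. In all, the call at ZT20 was lost in 7 of 15 alternatives. Among them were limma-trend (0.073), DESeq2 (0.0512) and leaving out replicate 3 (0.0679) or 4 (0.107).

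Gclm (ENSMUSG00000028124) lies on the plus strand of chromosome 3 from 122245557 to 122270732. At ZT0 the control mice had 420.1, 431, 439, 447 and 447 CPM and the cKOt mice 352, 362, 370.2, 388 and 394 CPM. At ZT8 the values were 419, 433, 443, 447 and 452 CPM in control and 321, 367, 367, 381 and 409 CPM in cKOt mice. The genotypes did not overlap at either time, with cKOt below control, whereas 7.30% of all genes separated the genotypes at ZT0 and 9.49% at ZT8. The transcript was lower at ZT0 (log2 fold change -0.23 ± 0.043, adjusted p = 0.000125), ZT8 (log2 fold change -0.22 ± 0.043, adjusted p = 7.77e-05), ZT12 (log2 fold change -0.21 ± 0.043, adjusted p = 0.000208), ZT16 (log2 fold change -0.24 ± 0.043, adjusted p = 2.33e-05) and ZT20 (log2 fold change -0.13 ± 0.043, adjusted p = 0.0389). ZT4 was the exception, with 409 ± 32.15 CPM in controls against 415 ± 19.5 CPM in cKOt mice (SD, n = 5 per group) and a fitted log2 fold change of -0.078 ± 0.045 (adjusted p = 0.294). The fit adjusts for the 2 factors of unwanted variation, so that a fitted difference can have another sign than that of the means, as it does here. The test of a varying difference did not pass (adjusted p = 0.395). Over all times the level was 429 ± 28.7 CPM in controls and 382 ± 29.6 CPM in cKOt animals (SD, n = 30 per genotype, log2 fold change -0.18 ± 0.018, adjusted p = 4.15e-13). The call at ZT20 was lost in 8 of 15 alternatives, among them the batch as covariate (adjusted p = 0.14) and no filter on low counts (0.145).

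Gss (ENSMUSG00000027610) lies on the minus strand of chromosome 2 from 155563181 to 155592810. The transcript passed at 3 of the 6 times. At ZT16 the control mice had 309.8, 315, 321, 352 and 395 CPM and the cKOt mice lay between 276 and 304.5 CPM. At ZT12 the values were 299, 299, 304.5, 305 and 348 CPM in control and 242.5, 257, 269, 286.5 and 292.5 CPM in cKOt mice. The genotypes did not overlap at these 2 times, as for 9.04% of all genes at ZT16 and 9.73% at ZT12, and they overlapped at the other 4. Gss was lower at ZT12 (log2 fold change -0.17 ± 0.052, adjusted p = 0.0112), ZT16 (log2 fold change -0.24 ± 0.052, adjusted p = 0.000454) and ZT20 (log2 fold change -0.22 ± 0.053, adjusted p = 0.00172), and at ZT0, ZT4 and ZT8 the log2 fold changes lay between -0.12 and -0.10 and did not pass. The mean was 323 ± 27.3 CPM in controls and 287 ± 24.4 CPM in cKOt animals (SD, n = 30 per genotype, log2 fold change -0.16 ± 0.021, adjusted p = 6.83e-09). Whether the difference varied between time points was tested and did not pass (adjusted p = 0.645). The call at ZT12 was lost without replicate 1 (0.109) or 4 (0.0806), and that at ZT20 with the batch as covariate (0.104). In the annotation Gss shares exonic bases with Acss2, Gssos1 and Gssos2 on the opposite strand, Keap1 with the antisense gene Gm16754, Gclm with Gm17494 (opposite strand) and Gm6061 (same strand), and G6pdx with Ikbkg, and the strand setting of the counting is not given in the sources used here.

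**Figure D3:**
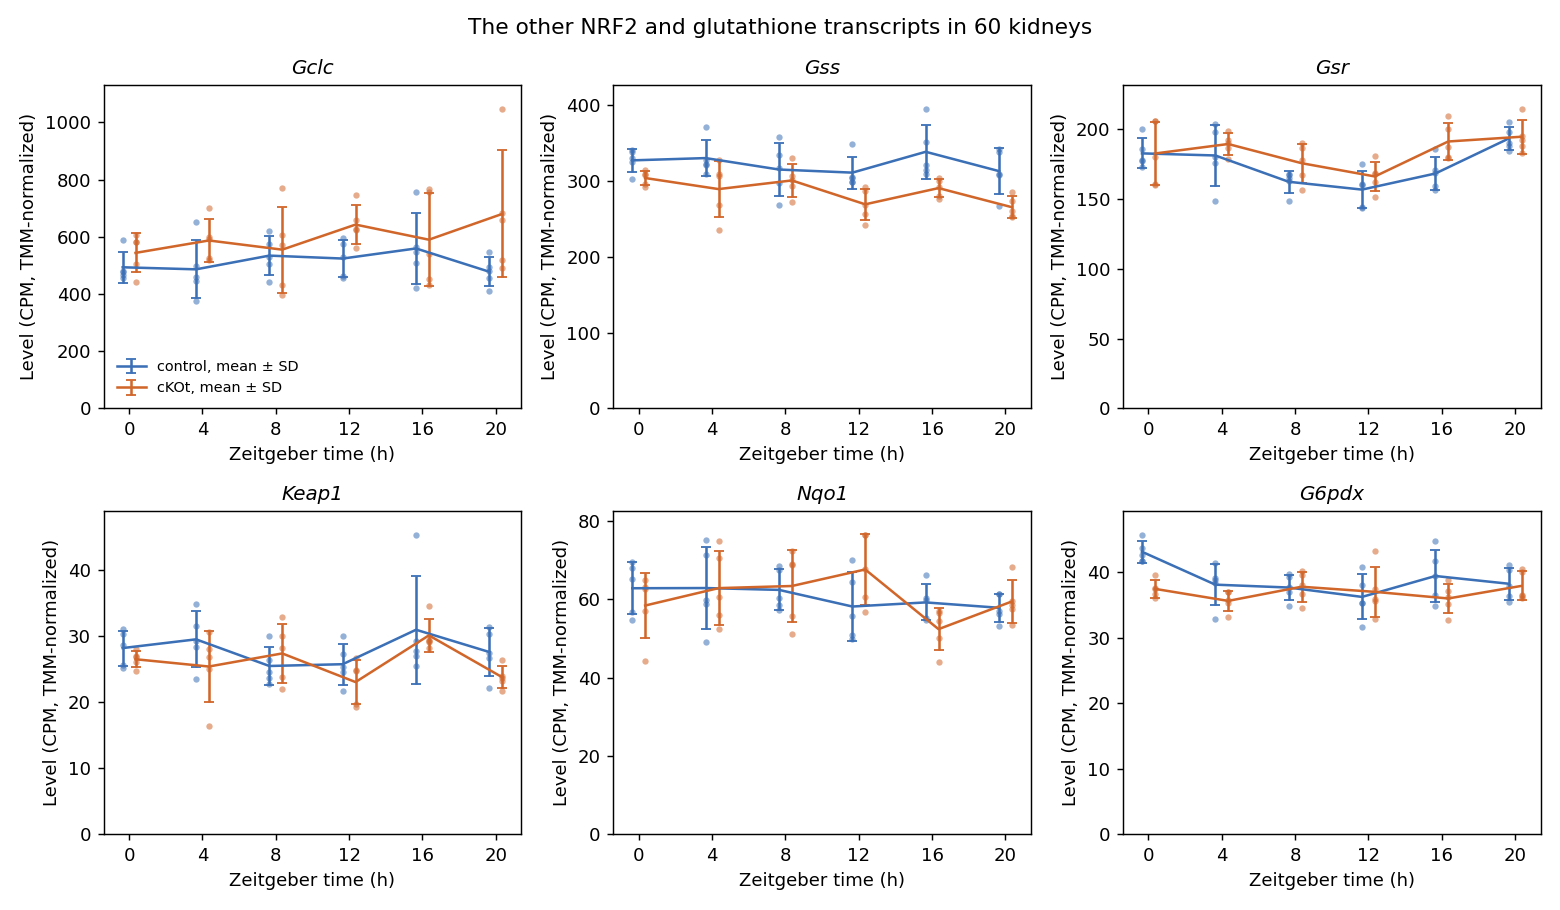
Levels of Gclc, Gss, Gsr, Keap1, Nqo1 and G6pdx (vertical axis, TMM-normalized CPM, starting at 0) against zeitgeber time, drawn as for the first 4 transcripts with a dot for each mouse and group means ± SD (n = 5). The widest spread is that of Gclc in cKOt mice at ZT20, where 1 mouse stands at 1047 CPM, and the lines of Nqo1 cross several times.

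Glutathione reductase (GSR) turns oxidized glutathione back into its reduced form at the cost of NADPH, which G6PDX, the first enzyme of the pentose phosphate pathway, supplies. Gsr (ENSMUSG00000031584) lies on the plus strand of chromosome 8 from 33652523 to 33698163, and G6pdx (ENSMUSG00000031400) lies on the minus strand of chromosome X from 74409483 to 74429194. Gsr was 174 ± 17.5 CPM in controls and 183 ± 16.3 CPM in cKOt animals (SD, n = 30 per genotype, log2 fold change 0.077 ± 0.028, adjusted p = 0.0204). The ranges overlapped at all 6 times and no single time passed, the nearest being ZT16 with 156, 159, 168.5, 171 and 185 CPM in control and 179, 179.7, 187, 199.5 and 209 CPM in cKOt mice (log2 fold change 0.18 ± 0.07, adjusted p = 0.054). G6pdx was 38.8 ± 3.42 CPM in controls and 36.95 ± 2.35 CPM in cKOt animals (SD, n = 30 per genotype, log2 fold change -0.063 ± 0.025, adjusted p = 0.0316). It passed at ZT0 (log2 fold change -0.20 ± 0.061, adjusted p = 0.0222), where the control mice had 41.7, 41.7, 42.7, 43.7 and 45.7 CPM and the cKOt mice 36.0, 36.7, 37.45, 37.6 and 39.5 CPM, without overlap (as for 7.30% of all genes). At the other 5 times the group means were between 36.2 and 39.4 CPM in controls and between 35.6 and 37.9 CPM in cKOt mice, and the ranges overlapped. Both mean differences were close to the threshold. Without a filter on low counts they were no longer called (adjusted p = 0.0527 for Gsr and 0.0601 for G6pdx), and leaving out replicate 4 had the same effect (0.0647 and 0.13). The call of G6pdx at ZT0 was lost without the factors of unwanted variation (0.0528) and without replicate 1 (0.0813), 2 (0.0721) or 4 (0.0532).

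Sulfiredoxin (SRXN1) restores overoxidized peroxiredoxins, and thioredoxin reductase 1 (TXNRD1) keeps cytosolic thioredoxin reduced. Srxn1 (ENSMUSG00000032802) lies on the plus strand of chromosome 2 from 152105516 to 152111376, and Txnrd1 (ENSMUSG00000020250) lies on the plus strand of chromosome 10 from 82833951 to 82897712. Srxn1 had the largest difference of the 10 and passed at all 6 times. At ZT20 the control mice had 88.2, 90.8, 94.2, 101 and 103 CPM and the cKOt mice 69.2, 70.4, 71.1, 74.3 and 76.8 CPM. At ZT0 the values were 79.2, 83.9, 92.2, 93.3 and 93.7 CPM in control and 61.5, 64.4, 68.6, 71.15 and 74.4 CPM in cKOt mice. All 5 cKOt mice were below all 5 control mice at both, as at ZT4 and ZT16. The share of all genes that separated the genotypes was 6.86% at ZT20, 7.30% at ZT0, 11.1% at ZT4 and 9.04% at ZT16. At ZT8 and ZT12 the ranges overlapped. The log2 fold change was -0.40 ± 0.069 at ZT20 (adjusted p = 1.4e-05) and -0.38 ± 0.068 at ZT0 (adjusted p = 5.68e-05), and it was smallest in size at ZT12, -0.22 ± 0.069 (adjusted p = 0.0138). At ZT4, ZT8 and ZT16 it was -0.31, -0.33 and -0.25. Over all times the level was 79.6 ± 11.4 CPM in controls and 63.9 ± 7.18 CPM in cKOt animals (SD, n = 30 per genotype, log2 fold change -0.32 ± 0.028, adjusted p = 2.66e-14), and no variation of the difference between times was called (adjusted p = 0.757). The call at ZT12 was lost without replicate 2 (0.062) or 4 (0.0775).

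For Txnrd1, ZT16 and ZT20 passed. At ZT20 the control mice had 252, 254, 259.7, 263 and 280.5 CPM and the cKOt mice 214, 219.5, 224, 231 and 247 CPM. At ZT16 the values were 233, 238, 257, 259 and 270.1 CPM in control and 204, 208, 210.5, 222 and 230.4 CPM in cKOt mice. The genotypes thus did not overlap at these 2 times, as for 9.04% of all genes at ZT16 and 6.86% at ZT20. The transcript was lower at ZT16 (log2 fold change -0.23 ± 0.059, adjusted p = 0.00346) and ZT20 (log2 fold change -0.21 ± 0.06, adjusted p = 0.0108). At ZT4 and ZT12 the group means were 197 ± 14.1 and 189 ± 13.5 CPM in controls, against 194.5 ± 10.1 and 195 ± 25.0 CPM in cKOt mice (SD, n = 5 per group), with log2 fold changes of -0.00059 and 0.053 that did not pass. At ZT0 the ranges overlapped, between 229.9 and 271 CPM in controls against between 212 and 239 CPM in cKOt mice, and the difference did not pass (log2 fold change -0.14 ± 0.059, adjusted p = 0.114). The mean was 225 ± 32.0 CPM in controls and 208 ± 19.5 CPM in cKOt animals (SD, n = 30 per genotype, log2 fold change -0.10 ± 0.024, adjusted p = 0.000407). The test of a varying difference did not pass (adjusted p = 0.136). The call at ZT20 was lost without replicate 3 (0.0539) or 5 (0.0552).

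Nqo1 encodes a quinone reductase that is widely used as a readout of NRF2 activity. Nqo1 (ENSMUSG00000003849) lies on the minus strand of chromosome 8 from 107388225 to 107403206. It was 60.6 ± 6.72 CPM in controls and 60.7 ± 8.77 CPM in cKOt animals (SD, n = 30 per genotype, log2 fold change -0.0029 ± 0.044, adjusted p = 0.964). The ranges overlapped at all 6 times. At ZT12 the control mice had 49.9, 50.8, 55.75, 64.3 and 70.1 CPM and the cKOt mice 56.7, 60.7, 67.8, 76.5 and 76.5 CPM, and at ZT16 54.7, 55.3, 59.7, 60.2 and 66.1 CPM and 44.1, 50.05, 54.4, 56.5 and 56.9 CPM. The fitted difference was 0.20 ± 0.11 at the first and -0.16 ± 0.11 at the second of these times and neither passed.

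At single time points, 3 of the 10 passed at ZT0, all lower in cKOt mice, where 12.1% of all genes passed (6.63% higher and 5.49% lower). At ZT4, 1 was higher and 1 lower, against 12.5% of all genes (6.20% and 6.34%), and at ZT8 1 was higher and 2 lower, against 19.9% (10.6% and 9.29%). At ZT12, 1 was higher and 3 lower, against 21.0% (10.3% and 10.8%), and at ZT16 4 were lower and 0 higher, against 19.8% (10.0% and 9.75%). The largest number was 6, at ZT20, with 1 higher and 5 lower, against 13.8% of all genes (5.98% and 7.79%). Srxn1 was among them at each time. At ZT20 the number was 3 with the batch as covariate and 3 without replicate 3 or 5, and at ZT12 it was 2 without replicate 4. The difference varied between time points for 3.08% of all genes and for none of the 10 (adjusted p from 0.0915 for Nfe2l2 to 0.824 for Gclc), and 2 of the 10 (Nfe2l2 and Txnrd1) had an unadjusted p under 0.05. By limma-trend and by DESeq2, 0 of the 10 passed as well. A pass at some times and not at others is therefore not shown to be a difference between those times for any of them.

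Per kilobase of exon, the order of the 10 in control mice was Gclc (136 ± 21.1 RPKM), Gclm (68.3 ± 4.56), Gsr (63.1 ± 6.36), Gss (54.6 ± 4.62), Nqo1 (39.0 ± 4.325), Txnrd1 (31.7 ± 4.52), Srxn1 (28.2 ± 4.05), Nfe2l2 (25.85 ± 2.72), G6pdx (12.6 ± 1.11) and Keap1 (5.94 ± 0.971; SD, n = 30 per genotype). Over the 30 mice the lowest Gclc value (100.1 RPKM) lay above the highest of Gclm (80.3), the lowest of Nfe2l2 (21.85) above the highest of G6pdx (14.8), and the lowest of G6pdx (10.3) above the highest of Keap1 (9.65). All other neighbours in this order overlapped in their ranges. In cKOt mice Gsr (66.45 ± 5.90 RPKM) stood before Gclm (60.65 ± 4.71 RPKM), and Nfe2l2 (29.6 ± 2.40 RPKM) beside Txnrd1 (29.35 ± 2.75 RPKM) and before Srxn1 (22.7 ± 2.55 RPKM).

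Over the day, 5 of the 10 transcripts varied in control mice by the test of 6 time points (Nfe2l2, adjusted p = 0.00616; Gsr, 0.00266; Txnrd1, 2.21e-10; Srxn1, 8.72e-08; G6pdx, 0.0274), against 30.6% of all genes. In cKOt mice 2 passed, Txnrd1 (0.00116) and Srxn1 (9.33e-05), against 26.6% of all genes. A pass in one genotype and not in the other is no test of a difference, which the test of a varying difference above addresses. Txnrd1 in control mice ran from 189 CPM at ZT12 to 262 CPM at ZT20, a ratio of 1.386 between group means, and Srxn1 from 67.3 to 95.4 CPM at the same times, a ratio of 1.417. In cKOt mice the ratio of the highest to the lowest group mean was 1.18 for Txnrd1 and 1.252 for Srxn1. Both transcripts were thus highest at ZT20, late in the night, in each genotype. The control call of Nfe2l2 was lost without replicate 1 (adjusted p = 0.055), and that of G6pdx without replicate 1 (0.262) or 5 (0.136).

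Each transcript was also given the best of 5 models of a 24 h cosine, by the Bayesian information criterion (BIC) on corrected log2 values, and was assigned where the BIC weight was at least 0.65. This is a choice of a model and not a test. Srxn1 (weight 0.922) and Gsr (0.869) were assigned to the same rhythm in both genotypes, as were 25.2% of all genes. Nfe2l2 (0.913) and G6pdx (0.747) were assigned to a rhythm in control mice alone (6.25% of all genes), Gss (0.805) to a rhythm in cKOt mice alone (3.42%) and Gclc (0.879) to none (34.0%). Keap1, Gclm, Nqo1 and Txnrd1 stayed unassigned (28.7%), Txnrd1 with a weight of 0.632 for rhythms that differ, to which 2.37% of all genes were assigned. The peak-to-trough amplitude of Nfe2l2 on the log2 scale was 0.23 ± 0.054 in control mice, with its peak at ZT19.8, and 0.093 ± 0.054 in cKOt mice. That of Srxn1 was 0.47 ± 0.059 (peak at ZT21.2) and 0.36 ± 0.059 (ZT20.2), and that of Txnrd1 0.49 ± 0.053 (ZT20.1) and 0.27 ± 0.053 (ZT20.5). The peaks of these transcripts in control mice fell in the second part of the night. The number of the 10 with a rhythm in at least 1 genotype was 5, and it was 3 without the correction for unwanted variation and 3 without replicate 1. The model of G6pdx changed in 6 of 10 alternatives, to unassigned in 5 and to no rhythm in 1. Those of Gss, Gsr, Nfe2l2 and Srxn1 changed in 3, 2, 1 and 1, and that of Gclc in 0. Of the unassigned, Nqo1, Keap1, Txnrd1 and Gclm changed in 6, 5, 5 and 2. Txnrd1 was assigned to the same rhythm in both genotypes without replicate 3 or 5. It was assigned to rhythms that differ without replicate 1 or 2, and where a weight of 0.5 sufficed.

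**Figure D4:**
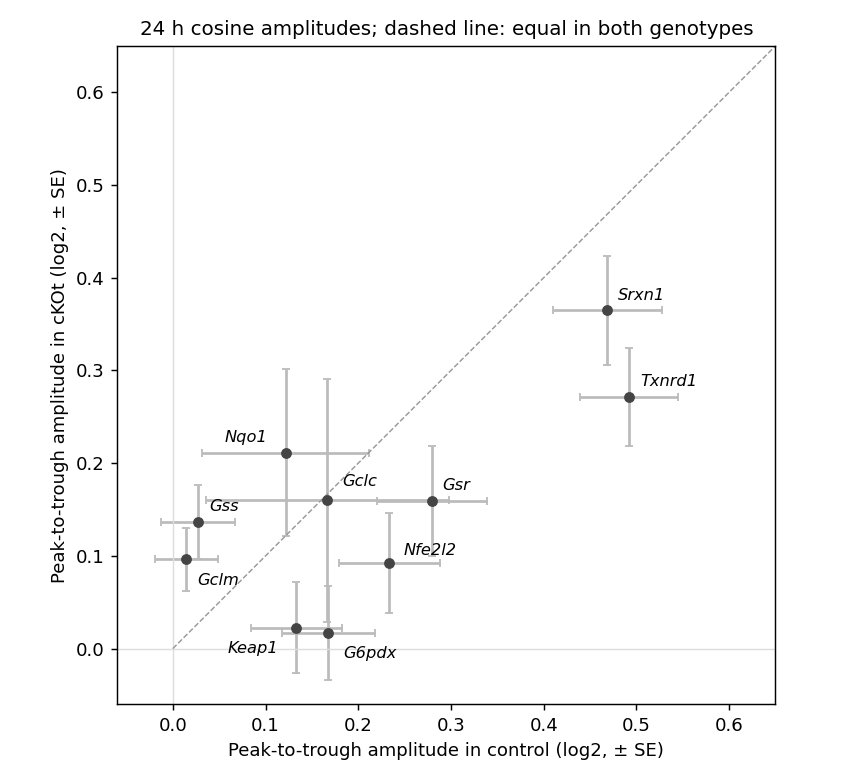
Peak-to-trough amplitude of a fitted 24 h cosine in control (horizontal axis) and cKOt mice (vertical axis) for the 10 transcripts, log2 scale, ± SE, with the dashed line where both are equal. Srxn1 and Txnrd1 have the largest amplitudes in both genotypes and lie below the line, and Gss, Gclm and Nqo1 lie above it.

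Mice that were high in one transcript within their group were compared with mice high in another, over the 45 pairs of the 10, as deviations from the group mean of log2 CPM in 60 mice. These are descriptions, because the points share library depth, batch and tissue piece. The highest Pearson correlation was that of Keap1 with Gss (r = 0.819, Spearman's rho = 0.751, r = 0.768 without the 2 mice farthest from the median of Keap1), followed by Nqo1 with Txnrd1 (0.613, rho 0.652, 0.59 without 2 mice), Nfe2l2 with Gclm (0.541, rho 0.451, 0.483) and Txnrd1 with Srxn1 (0.504, rho 0.458, 0.415). With the batch mean removed as well, these were 0.857, 0.627, 0.512 and 0.588. The lowest were Keap1 with Gclm (-0.635), Nfe2l2 with Gss (-0.488) and Nfe2l2 with Keap1 (-0.482). After correction for the 2 factors of unwanted variation they were -0.037, -0.23 and -0.15, and Keap1 with Gss was 0.547, whereas Nqo1 with Txnrd1 (0.649) and Txnrd1 with Srxn1 (0.57) did not shrink. Nfe2l2 correlated with its target Nqo1 at r = 0.393, with Srxn1 at 0.326, with Txnrd1 at 0.312, with G6pdx at 0.297, with Gsr at 0.288 and with Gclc at 0.084. After correction for the 2 factors these were 0.343, 0.221, 0.427, 0.366, 0.363 and -0.032. With the batch mean removed, G6pdx was at -0.018 and Gsr at 0.076.

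Among 9307 genes with a mean of at least 10 CPM, those whose 12 group means followed Nfe2l2 most closely were Acnat2 (r = 0.963), Lta4h (0.962), Tab2 (0.949), Tfcp2l1 (0.944) and Fam184a (0.943). For Gclc they were Mal (r = 0.888), Mgat4a (0.879), Golm1 (0.869), Cytip (0.863) and Pls3 (0.862). These are descriptions of likeness over 12 groups.

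The other genes of the pathway were read from 6 lists, against the same 50.0% of all genes that passed the test of the mean. By direction these were 26.8% higher and 23.2% lower, and 16.1% of all genes passed with a fold change above 1.2. Among 13 partners and regulators of NRF2, 5 were higher, 4 lower and 4 did not pass (median log2 fold change -0.03). Sqstm1, which encodes p62, an autophagy adaptor that binds KEAP1, was the one with a fold change above 1.2, at 450.2 ± 46.2 CPM in controls and 353 ± 34.7 CPM in cKOt animals (SD, n = 30 per genotype, log2 fold change -0.34 ± 0.02, adjusted p = 4.47e-21), and its difference varied between time points (adjusted p = 0.000926), from -0.17 at ZT12 to -0.54 at ZT20. At ZT20 the control mice had 420.5, 462, 472, 481 and 509 CPM and the cKOt mice 295, 309.5, 322, 337 and 346 CPM, without overlap (as for 6.86% of all genes).

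Of 23 further targets of NRF2, 21 were retained, all but Slc7a11 and Gpx2, whose highest counts in a library were 10 and 4. Of the 21, 13 were lower, 5 higher and 3 did not pass, with a median of -0.18, and 9 passed with a fold change above 1.2. The shares of all genes were 23.2% lower, 26.8% higher and 16.1% above 1.2. Hmox1, heme oxygenase 1, had the largest difference of the 21 and fell from 36.8 ± 12.35 to 18.8 ± 8.54 CPM (SD, n = 30 per genotype, log2 fold change -0.98 ± 0.077, adjusted p = 3.32e-16), and passed at all 6 time points. At ZT0 the control mice had 42.0, 42.65, 50.9, 52.4 and 58.3 CPM and the cKOt mice 20.2, 21.9, 23.7, 26.0 and 26.2 CPM, without overlap (as for 7.30% of all genes). Ptgr1, a prostaglandin reductase, was also lower (log2 fold change -0.52 ± 0.049, adjusted p = 2.06e-13). The carbonyl reductase Cbr1 (19.4 ± 2.15 CPM in controls and 32.7 ± 5.02 CPM in cKOt animals; log2 fold change 0.76 ± 0.041, adjusted p = 1.01e-22) and the export pump Abcc3 (3.08 ± 0.821 CPM in controls and 4.75 ± 1.48 CPM in cKOt animals; log2 fold change 0.65 ± 0.076, adjusted p = 2.58e-10) were higher. The 4 macrophage markers, of a cell type that expresses Hmox1, summed to 91.8 to 183 CPM in control (median 128) and 59.3 to 124.5 CPM in cKOt mice (median 105.0), and their part in the result was not tested.

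In the list of cysteine supply and glutathione turnover, 6 of 15 were higher, 5 lower and 4 did not pass (median 0.049). Ggct, gamma-glutamylcyclotransferase, which releases oxoproline, had the largest difference of the 6 lists and was 43.0 ± 7.87 CPM in controls and 91.3 ± 16.1 CPM in cKOt animals (SD, n = 30 per genotype, log2 fold change 1.07 ± 0.048, adjusted p = 2.83e-26). At ZT8 the control mice had 35.5, 36.0, 38.4, 44.2 and 48.0 CPM and the cKOt mice 94.1, 97.8, 98.8, 117.5 and 125 CPM, without overlap (as for 9.49% of all genes). Oplah, oxoprolinase, which opens oxoproline to glutamate, was 161 ± 29.1 CPM in controls and 95.5 ± 18.9 CPM in cKOt animals (log2 fold change -0.73 ± 0.028, adjusted p = 6.96e-29). The gamma-glutamyltransferase family member Ggt6 was higher (7.14 ± 1.75 CPM in controls and 10.0 ± 1.74 CPM in cKOt animals; log2 fold change 0.52 ± 0.05, adjusted p = 4.3e-13), and Chac1, a glutathione-degrading cyclotransferase at less than 1 CPM, was lower (log2 fold change -0.74 ± 0.19, adjusted p = 0.000844).

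Of 14 glutathione peroxidases, glutaredoxins and related enzymes, 2 were higher, 6 lower and 6 did not pass (median -0.011). Glrx, glutaredoxin 1, was 33.7 ± 4.46 CPM in controls and 22.7 ± 2.83 CPM in cKOt animals (log2 fold change -0.58 ± 0.041, adjusted p = 3.96e-18), and Gpx6, a glutathione peroxidase, was lower too (log2 fold change -0.56 ± 0.051, adjusted p = 7.12e-14), whereas Mgst1, a microsomal glutathione transferase, was higher (log2 fold change 0.39 ± 0.048, adjusted p = 7.58e-10). Of 17 genes of the thioredoxin, peroxiredoxin, catalase and superoxide dismutase systems, 4 were higher, 9 lower and 4 did not pass (median -0.11). Catalase (Cat) was 1143 ± 72.8 CPM in controls and 804 ± 61.2 CPM in cKOt animals (log2 fold change -0.51 ± 0.024, adjusted p = 1.43e-25) and cytosolic superoxide dismutase (Sod1) 443 ± 29.7 CPM in controls and 346 ± 22.3 CPM in cKOt animals (log2 fold change -0.36 ± 0.022, adjusted p = 1.27e-20). In contrast to Txnrd1, the mitochondrial reductase Txnrd2 (log2 fold change 0.27 ± 0.025, adjusted p = 1.17e-13) and Txnrd3 (log2 fold change 0.32 ± 0.043, adjusted p = 1.13e-08) were higher. Of 10 other NADPH sources, 2 were higher, 5 lower and 3 did not pass (median -0.069), with Nadk, the cytosolic NAD kinase, at 237.5 ± 17.5 CPM in controls and 196 ± 16.1 CPM in cKOt animals (log2 fold change -0.27 ± 0.017, adjusted p = 9.12e-20).

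**Figure D5:**
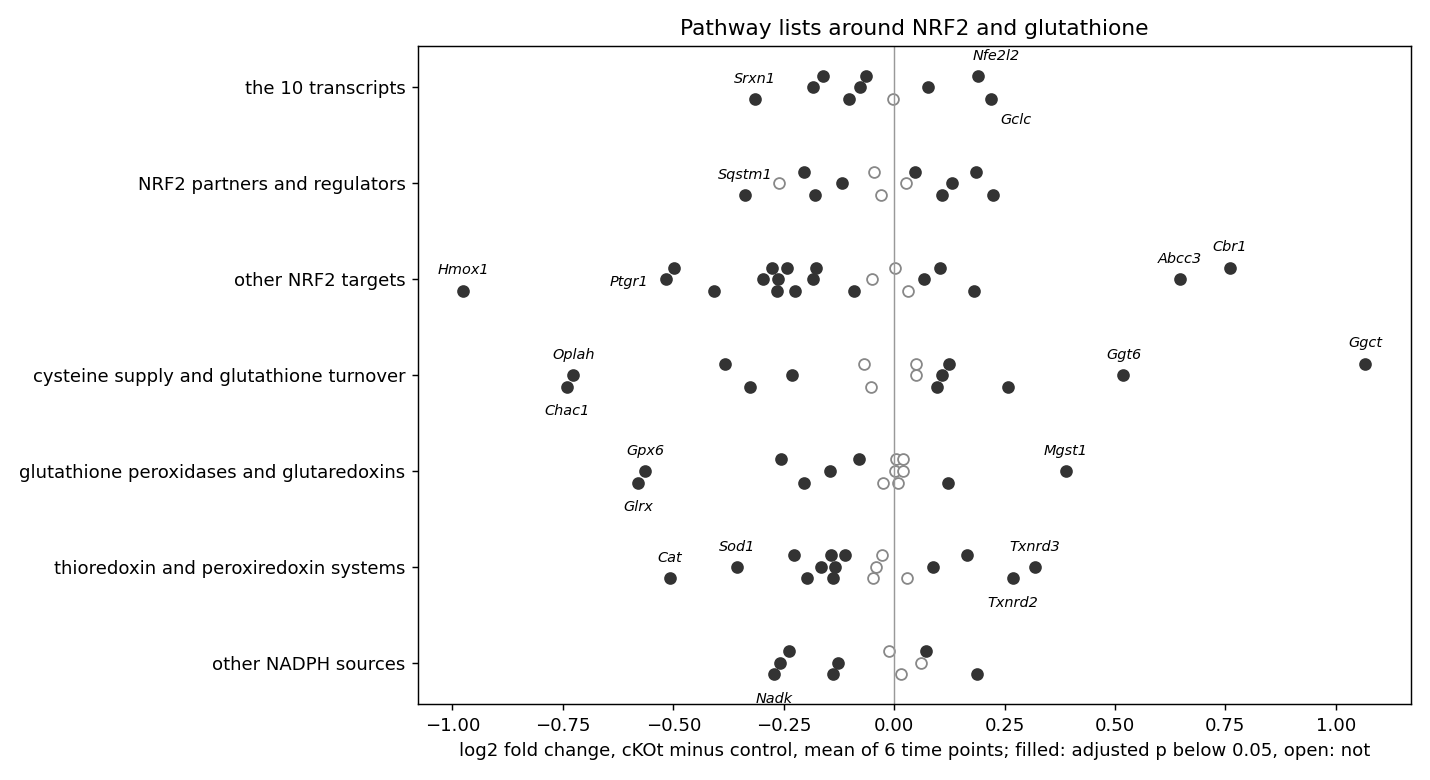
Log2 fold change (cKOt minus control, mean of 6 time points, horizontal axis) of the 10 transcripts and of the retained genes of 6 pathway lists (rows; vertical offsets within a row carry no meaning); filled points passed an adjusted p of 0.05 and open points did not. Ggct (1.07) and Hmox1 (-0.98) mark the ends of the scale, and the 10 transcripts lie between Srxn1 (-0.32) and Gclc (0.22).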

How the data were processed

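The authors sequenced stranded poly(A) libraries as single reads, and per the labels' processing notes used bcl2fastq, cutadapt 1.8, STAR 2.5.3a and HTSeq 0.9.1 on GRCm38. The deposited values are raw read counts per Ensembl gene for 60 mice. The annotation release and strand setting of the counting are not given in the sources used here, and reads of overlapping genes may be counted with either gene or left out. The 5 closing lines without a gene stayed out of library sizes. Reads without a feature or ambiguous between features made up 8.44 to 11.6% of the sum of such reads and reads on genes. The other closing lines were not part of this percentage.

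Groups follow the labels. Genes reaching 1 CPM in 1 or more samples (15546 of 55335) were tested with edgeR 4.0.16 (R 4.3.3) quasi-likelihood F tests on TMM-scaled counts. The fit had 12 genotype-by-time groups and 2 RUVs factors of unwanted variation. The weight of each gene in a factor came from differences between mice of a group. The value of a factor in each mouse came from the full log2 CPM, so that it can differ between groups. The contrasts were the mean difference over 6 time points, the difference at each time, its variation between times, and time within each genotype, each with Benjamini-Hochberg adjustment over all tested genes and a threshold of 0.05. CPM values are TMM-normalized and unadjusted for the factors, and RPKM is CPM per kilobase of exon in GENCODE M21. Cosines of 24 h were fitted to corrected log2 CPM (prior count 2). Promoters are from RefSeq. The code was checked on simulated data. Depth was 17791420 to 20906706 counts on genes per library, with medians of 18595945.5 in control and 18538083.5 in cKOt mice.

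All 10 members were named, and in each list up to 4 genes with adjusted p below the threshold and a fold change above 1.2, largest first. Members, lists and tests were chosen with earlier results of these data known. Alternatives were DESeq2 1.42.0 and limma 3.58.1, other scaling and filters, no factors, batch in place of the factors, a replicate block, leaving out each replicate number, and leaving out 1 sample. Replicate numbers did not pair the mice. Deviations from group means correlated at 0.0043 on average for mice of the same number and at -0.001 for others.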

Additional observations from a re-analysis of the deposited data

Results flagged for a closer look

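In 7 of 120 groups of 5 mice (10 transcripts in 12 groups), the highest or lowest mouse stood so far from the next that its gap exceeded 0.71 of the range of the group, where chance alone gives about 1 group in 20. These were Keap1 at ZT16 in control mice, where the highest mouse had 45.3 CPM and the next 29.17 CPM, and in cKOt mice, with 34.5 CPM and 29.4 CPM. The others were Gclc in control mice at ZT0 (587.7 CPM, next 479.7 CPM), Gclm in control mice at ZT12 (498.2 CPM, next 427.0 CPM) and at ZT20 (505.3 CPM, next 426.4 CPM), Gss in control mice at ZT12 (348.4 CPM, next 305.3 CPM) and Gsr in control mice at ZT8, where the lowest mouse had 148.4 CPM and the next 162.8 CPM. The targeted gene Arntl had such a mouse in control mice at ZT8 (4.174 CPM, next 2.594 CPM) and at ZT12 (5.509 CPM, next 2.323 CPM). The 7 of 120 groups are close to the 1 in 20 that chance alone gives. Whether anything sets these mice apart was not tested.

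The genotype difference varied between the 6 time points, by the quasi-likelihood F test of edgeR (Benjamini-Hochberg adjustment), for Sqstm1 (adjusted p = 0.000926), Oplah (adjusted p = 0.0484) and Arntl (adjusted p = 4.86e-16).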

How the results depend on the processing

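The 160 results were compared with their alternatives in 1977 comparisons. Of these, 1865 were classed as the same, 47 lost and 7 gained a call, 55 moved and 3 turned direction. A test was the same if it kept its side of the threshold, and its direction where it had one. Counts were the same within a fixed ratio, and rhythm models if unchanged. Correlations, percentages and medians had no such limit, and only the larger correlations were checked for a change of sign. The mean differences of Nfe2l2, Gclc, Gclm, Gss, Txnrd1 and Srxn1 were called in all 15 alternatives, with log2 fold changes of 0.18 to 0.21, 0.18 to 0.25, -0.19 to -0.17, -0.17 to -0.14, -0.12 to -0.081 and -0.34 to -0.30, and those of Keap1, Gsr and G6pdx were lost in 4, 3 and 4. Those counted as turning direction were the mean difference of Nqo1 and the correlation of Gclm with Gss. The difference of Nqo1 was never called and became 0.0052 without replicate 2 and 0.018 without replicate 4 (lowest -0.024, without replicate 3). The correlation of Gclm with Gss became 0.21 after correction for unwanted variation. Some weaker correlations, which were not counted, changed sign as well. Keap1 with Gclc went from -0.066 to 0.207 after that correction, and Nfe2l2 with G6pdx from 0.297 to -0.018 with the batch mean removed. Without the RUVs factors 263 genes, and with the batch in their place 312 genes, had a difference that varied between time points, against 479, and leaving out each replicate number gave 233 to 429. With the batch, 1 of the 10 transcripts (Nfe2l2) passed that test and 3 rather than 6 passed at ZT20. The replicate number does not pair the mice, and with it as a block 1 of the 10 (Nfe2l2, adjusted p = 0.0404) passed the test of a varying difference and Gclc at ZT20 did not pass (adjusted p = 0.0541). The adjusted p of Nfe2l2 in that test ran from 0.0359 to 0.293 over all alternatives. Leaving out each replicate number left 3 to 5 transcripts called at ZT20, 2 to 4 at ZT12 and 3 to 5 for time in control mice, 2608 to 3375 of all genes for time in cKOt mice (4142 with all mice), and 3 to 6 transcripts with a rhythm, and 3 had a rhythm without the correction. The numbers of all genes called without the factors were 983 at ZT0, 2013 at ZT8, 1853 at ZT16 and 1407 at ZT20, and with the batch 1130, 1991, 1829 and 1419, and 3091 at ZT4, against 1884, 3095, 3071, 2140 and 1950 (ZT4). The cause of these changes was not tested. Leaving out the cKOt mouse with the highest Gclc value at ZT20 was an alternative chosen after seeing the data. It gave 511 genes with a varying difference and 4087 for time in cKOt mice, with 4 of the 10 transcripts called at ZT20, and Gclm at ZT20 was no longer called (adjusted p = 0.0928). Transcripts below a few CPM, such as Chac1, have the least precise differences.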

Other observations

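Among the listed genes, a few that the naming rule left out had differences close to the pathway's own steps, and they were chosen after their values were seen. Cul3, the scaffold of the ligase that KEAP1 serves, was 204.9 ± 18.1 CPM in controls and 179.9 ± 17.5 CPM in cKOt animals (SD, n = 30 per genotype, log2 fold change -0.20, adjusted p = 4.74e-16 by edgeR). Slc25a39, the carrier that brings glutathione into mitochondria, was 436.3 ± 70.03 CPM in controls and 329.6 ± 66.04 CPM in cKOt animals (log2 fold change -0.38, adjusted p = 4.03e-22). Ggt1, the brush border enzyme that starts the breakdown of glutathione, was 973.9 ± 139.4 CPM and 769.9 ± 152.0 CPM (log2 fold change -0.33, adjusted p = 1.78e-13), and Cth, which makes cysteine, was 199.5 ± 13.2 CPM and 240.0 ± 13.95 CPM (log2 fold change 0.26, adjusted p = 5.22e-17). Ggt1 and Cth thus differed in opposite directions.

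Nnt, the mitochondrial transhydrogenase that makes NADPH and that is damaged by a deletion in the C57BL/6J strain, stood at 1.51 ± 0.342 CPM in controls and 1.58 ± 0.461 CPM in cKOt animals (SD, n = 30 per genotype), with 16 to 48 counts per library. Its log2 fold change was 0.015 ± 0.092 (adjusted p = 0.907), and the strain's deletion itself was not examined here.

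Extremes of several transcripts fell in the same mice. Replicate 1 of the control mice at ZT16 had the highest Keap1 (45.3 CPM) and Gss (395.3 CPM) of its group and the lowest Gclm (380.5 CPM). After correction for unwanted variation its Keap1 was still the highest. On that corrected log2 scale Gss was highest in replicate 4 (8.13, against 8.06 in replicate 1). Gclm was lowest there in replicate 3 (8.89, against 8.98 in replicate 1). Replicate 1 of the control mice at ZT20 had the highest Gclm (505.3 CPM) and Nfe2l2 (129.9 CPM) and the lowest Gss (266.6 CPM) of its group, and these extremes held after the same correction.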
